A study of Mus musculus with 36 samples.

Results

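Taf15, Pogk, Zfp180, Zfp148, Arhgap32, Rad23b and Dgkg are 7 genes whose messenger RNA differed between mouse astrocyte cultures given RU486 alone and cultures given vehicle, out of 18929 genes measured. The first 4 with Arhgap32 and Dgkg were among the 14 genes that differed over the mean of 2, 4 and 6 h, and Rad23b was the 1 gene that differed at 4 h. The genes were chosen by their differences between RU486 alone and vehicle, so the values of that comparison are given here as a description with no test, and the tests are on RU486 added to corticosterone, a difference between other groups. All 36 arrays share 1 estimate of each gene's spread in the fit, so the arrays of those groups entered the choice through that estimate. Their levels entered it only through the pick of probes described below. A choice by small p favours genes with a low estimated spread, which can raise the share of the 7 called in the tests. The 7 genes had 18 of the 45281 probes. Of these, 14 were brighter than the array median on at least 3 arrays, and every gene kept at least 1 such probe. The brightest probe stands for the gene, and Arhgap32 is listed on the array as Grit. Brightness is the mean intensity over all 36 arrays, so the levels of the tested groups had a part in that pick. For Rad23b, whose 2 brightest probes had means of 10.30 and 10.20, the pick may favour the difference tested.

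The cultures were primary cortical astrocytes from C57B/6 pups aged P0-P2, a bulk preparation grown in medium with fetal bovine serum. The labels do not say whether steroids had been removed from the serum, so RU486 alone means that no steroid was added. Each of 4 treatments was given for 2, 4 or 6 h: vehicle, 100 nM corticosterone, 500 nM RU486, or 100 nM corticosterone with 500 nM RU486. Each of the 12 groups had 3 Illumina bead arrays, 36 in all. The labels do not say that replicates came from separate cultures, so the tests measure the spread between arrays, which may be technical. All levels are log2 of the deposited intensity, on which the median of an array lay between 6.79 and 6.80, and differences are on the same log2 scale.

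Rodents make corticosterone as their chief glucocorticoid, which acts through the glucocorticoid receptor, a ligand-activated transcription factor. RU486 (mifepristone) occupies that receptor and the progesterone receptor and blocks much of what their hormones do, and in some cells it has weak agonist activity of its own. Astrocytes express the glucocorticoid receptor and respond to glucocorticoids with changes in metabolic and structural genes. The 7 genes come from several nuclear and signalling functions. Taf15 is an RNA-binding protein of the FET family, Pogk is a KRAB protein derived from a pogo transposase, Zfp180 is a zinc finger protein, and Zfp148 is a zinc finger transcription factor that binds GC-rich promoters. Arhgap32 is a GTPase-activating protein for small GTPases of the Cdc42 and Rac1 type. Rad23b is the partner of the damage sensor Xpc in nucleotide excision repair and carries ubiquitinated proteins to the proteasome. Dgkg is a diacylglycerol kinase, which converts the lipid messenger diacylglycerol to phosphatidic acid.

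The genes lie on different chromosomes except for Zfp148 and Dgkg, which are both on chromosome 16. In the RefSeq annotation of GRCm38.p6, Taf15 spans chr11:83473073-83506743, Pogk chr1:166393610-166409853, Zfp180 chr7:24081877-24107709 and Zfp148 chr16:33380775-33503903. Arhgap32 spans chr9:32016625-32268443, Rad23b chr4:55350042-55392237 and Dgkg chr16:22466568-22657302. All 7 matched RefSeq start sites, 10 in number, and the 250 bases upstream of each were searched on both strands for the hexamer AGAACA or TGTTCT, the repeat unit of the glucocorticoid receptor's palindromic element, and for that palindrome, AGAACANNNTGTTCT, which contains the hexamer. Of the 10 windows, 2 held the hexamer and 0 held the palindrome. Among all 32851 mouse windows of the same length, 16.1% held the hexamer and 0.0091% the palindrome. A match is a run of letters and not a binding site. The windows with the hexamer, shown in capitals, belong to Pogk (chr1:166409829-166410078, minus strand, hexamer starting 243 bases upstream) and to the third start site of Arhgap32 (chr9:32224025-32224274, plus strand, 46 bases upstream). The windows of Rad23b (chr4:55349792-55350041, plus strand) and Dgkg (chr16:22657232-22657481, minus strand) are shown because these genes differed most when RU486 was added to corticosterone, and neither holds the hexamer. Each runs 5′ to 3′ on the strand of its gene.
Pogk: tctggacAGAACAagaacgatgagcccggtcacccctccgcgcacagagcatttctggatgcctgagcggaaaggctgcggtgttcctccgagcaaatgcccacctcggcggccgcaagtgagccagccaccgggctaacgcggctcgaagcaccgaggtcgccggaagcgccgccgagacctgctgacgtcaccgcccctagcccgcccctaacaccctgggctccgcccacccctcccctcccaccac
Arhgap32: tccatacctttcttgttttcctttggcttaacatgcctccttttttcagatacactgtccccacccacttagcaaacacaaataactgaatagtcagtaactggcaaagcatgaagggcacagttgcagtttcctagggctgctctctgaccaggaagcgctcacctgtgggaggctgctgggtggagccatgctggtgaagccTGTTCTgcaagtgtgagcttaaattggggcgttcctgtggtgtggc
Rad23b: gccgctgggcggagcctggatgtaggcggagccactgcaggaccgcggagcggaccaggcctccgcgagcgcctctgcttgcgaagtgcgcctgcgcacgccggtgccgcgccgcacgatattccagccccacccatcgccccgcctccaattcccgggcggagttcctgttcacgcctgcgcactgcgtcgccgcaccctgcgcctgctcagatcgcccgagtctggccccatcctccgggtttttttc
Dgkg: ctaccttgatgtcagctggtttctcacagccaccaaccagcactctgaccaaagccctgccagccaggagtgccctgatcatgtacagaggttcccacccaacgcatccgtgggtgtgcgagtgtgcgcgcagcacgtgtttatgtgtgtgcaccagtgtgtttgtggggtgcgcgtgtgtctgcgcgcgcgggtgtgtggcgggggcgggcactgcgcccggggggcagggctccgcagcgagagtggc

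Astrocyte markers were measured in the cultures, and so were markers of other cell types. Of 13 astrocyte markers 12 were measured, S100b being the one below the filter, and their summed intensity ran from 76869 to 121083 over the 36 arrays. The corresponding ranges were 19353 to 40188 for 9 oligodendrocyte lineage markers, 5800 to 13707 for 7 neuron markers, 2694 to 9721 for 7 fibroblast and meninges markers, 1389 to 4045 for 8 microglia markers and 740 to 1275 for 7 endothelium markers. These sums do not rank the cell types, since the lists differ in length and single bright probes weigh most. Olig1 had a mean log2 intensity of 14.53, and the astrocyte markers ran from 7.39 for Gjb6 to 14.87 for Slc1a3. Itgam and Ptprc of microglia, Mog of oligodendrocytes, Rbfox3, Snap25, Nefl and Slc17a6 of neurons, Cldn5 of endothelium and Lum and Vtn of fibroblasts were below the filter. The treatments overlapped in the summed level of every marker list, and no marker was called by limma between RU486 and vehicle over the times, while without the 2 arrays described next 1 of 9 oligodendrocyte lineage markers was higher. When RU486 was added to corticosterone Gfap rose by 1.52 and Gjb6, Glul and Ndrg2 fell by 1.55, 0.60 and 0.58 among the astrocyte markers, and Csf1r of microglia and Stmn2 of neurons rose by 0.51 and 0.42. Without those 2 arrays the counts in that comparison were 1 higher and 5 lower for astrocyte, 1 higher and 1 lower for neuron and 1 higher for fibroblast and meninges markers. Of all genes 12.8% were called there with those arrays and 31.2% without them. The part of these markers in the results was not tested. In bulk RNA, fewer cells of a type and less RNA per cell cannot be told apart. The array of vehicle at 6 h replicate 1 correlated with the others at a median of 0.756 and that of corticosterone with RU486 at 6 h replicate 3 at 0.885, while the other 34 arrays lay between 0.960 and 0.990. For the 7 genes, calls that change without these 2 arrays are given both ways.

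**Figure D1:**
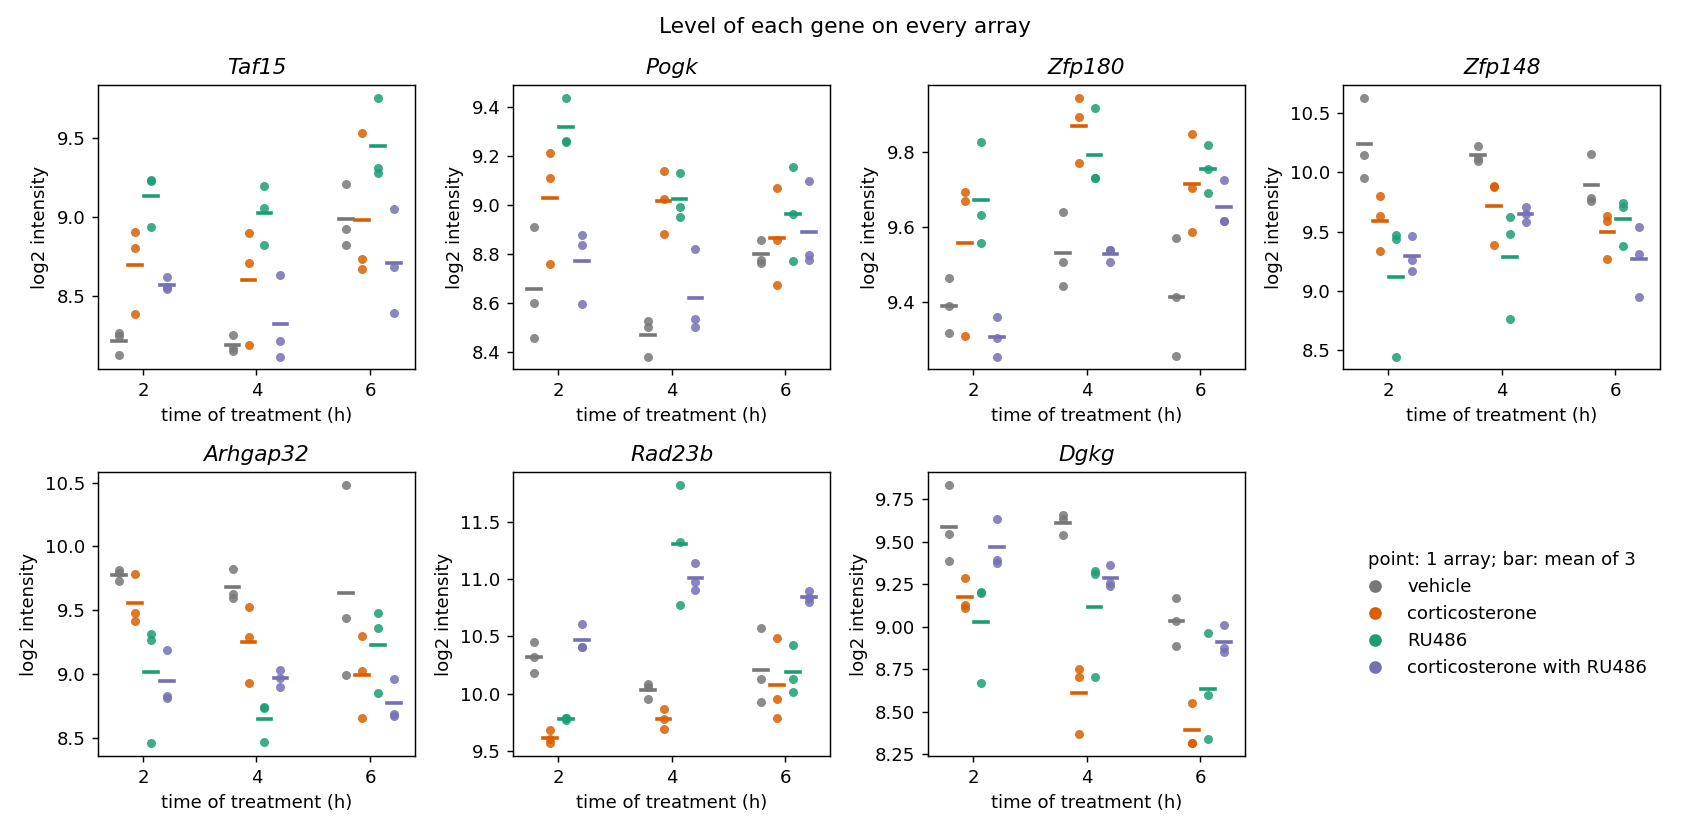
Level of each of the 7 genes (log2 intensity, vertical axis, with its own range in each panel) on all 36 arrays at 2, 4 and 6 h. Each point is 1 array and each bar the mean of the 3 arrays of a group; Rad23b rises to 11.83 on an array with RU486 alone at 4 h, and the vehicle arrays of Zfp148 and Dgkg lie above those with corticosterone at each time.

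With RU486 alone, Taf15, Pogk and Zfp180 were higher than with vehicle over the mean of the 3 times, and Zfp148, Arhgap32 and Dgkg were lower. For Taf15 the vehicle arrays read 8.25, 8.13 and 8.27 at 2 h, 8.16, 8.26 and 8.18 at 4 h, and 9.21, 8.82 and 8.93 at 6 h. The RU486 arrays read 8.94, 9.23 and 9.23, then 8.83, 9.06 and 9.20, then 9.31, 9.75 and 9.28. No RU486 array of Taf15 fell within the vehicle range of its time, and vehicle itself was higher at 6 h than at the earlier times. The difference was 0.74 (SE 0.12) over the times, from 0.91 at 2 h to 0.83 at 4 h and 0.46 at 6 h.

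Pogk gave vehicle readings of 8.46, 8.91 and 8.60 at 2 h, 8.53, 8.50 and 8.38 at 4 h, and 8.76, 8.86 and 8.77 at 6 h. With RU486 alone it read 9.26, 9.44 and 9.26, then 8.99, 9.13 and 8.95, then 8.96, 8.77 and 9.15. The groups were apart at 2 and 4 h and overlapped at 6 h, with differences of 0.66, 0.56 and 0.17 and a mean of 0.46 (SE 0.08). Zfp180 differed by less but more evenly, by 0.28, 0.26 and 0.34, with a mean of 0.30 (SE 0.06). Its vehicle arrays read 9.39, 9.46 and 9.32 at 2 h, 9.51, 9.64 and 9.44 at 4 h, and 9.26, 9.57 and 9.41 at 6 h. Its RU486 arrays read 9.56, 9.83 and 9.63, then 9.92, 9.73 and 9.73, then 9.76, 9.69 and 9.82, above the vehicle range at each time.

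Zfp148 had vehicle values of 10.63, 9.95 and 10.15 at 2 h, 10.10, 10.12 and 10.22 at 4 h, and 10.15, 9.78 and 9.76 at 6 h. Its values with RU486 alone were 8.45, 9.44 and 9.47, then 8.77, 9.62 and 9.48, then 9.74, 9.71 and 9.38. The RU486 arrays were all below the vehicle arrays of the same time (differences of -1.12, -0.86 and -0.29), and replicate 1 was the lowest RU486 array at 2 and 4 h. Without the 2 arrays that stand apart the difference at 6 h was -0.16. Over the times the difference was -0.76 (SE 0.14).

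Arhgap32 read 9.81, 9.73 and 9.79 in vehicle at 2 h, 9.63, 9.82 and 9.60 at 4 h, and 10.48, 9.44 and 8.99 at 6 h. With RU486 alone it read 8.46, 9.27 and 9.32, then 8.47, 8.73 and 8.74, then 9.48, 9.36 and 8.85. The groups were apart at 2 and 4 h, by -0.76 and -1.03. At 6 h they overlapped, and the difference of -0.41 was 0.01 without the 2 arrays that stand apart, one of which held the vehicle value of 10.48. The mean over the times was -0.74 (SE 0.15) with those arrays and -0.59 (SE 0.12) without them.

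Dgkg had vehicle values of 9.54, 9.38 and 9.83 at 2 h, 9.54, 9.63 and 9.66 at 4 h, and 9.03, 8.89 and 9.17 at 6 h. With RU486 alone the values were 8.67, 9.20 and 9.20, then 8.70, 9.33 and 9.31, then 8.34, 8.60 and 8.96. The groups did not overlap at 2 and 4 h, and 1 RU486 array lay within the vehicle range at 6 h. Differences of -0.56, -0.50 and -0.40 gave a mean of -0.48 (SE 0.10), and that at 4 h was -0.29 without RU486 replicate 1.

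On its brightest probe Rad23b changed direction with time under RU486 alone. Vehicle arrays read 10.18, 10.45 and 10.32 at 2 h, 9.96, 10.06 and 10.08 at 4 h, and 10.13, 9.93 and 10.57 at 6 h. RU486 arrays read 9.79, 9.78 and 9.77 at 2 h, 10.77, 11.33 and 11.83 at 4 h, and 10.02, 10.43 and 10.13 at 6 h. They were therefore all below vehicle at 2 h (-0.53), all above it at 4 h (1.28) and mixed with it at 6 h (-0.02), with a mean over the times of 0.24 (SE 0.11), which was 0.15 without RU486 4 h replicate 3. The 3 RU486 arrays at 4 h differed by more among themselves than those at 2 h, which nearly coincided.

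The choice rested on a threshold that cut through a run of close values. Over the mean of the times 14 genes, 0.074% of those tested, passed an adjusted p of 0.05 in this comparison, and at 4 h 1 gene, 0.00528%, did. At 2 and 6 h 0 genes passed by limma after Benjamini-Hochberg adjustment, against 1337 and 4108 genes at an unadjusted p under 0.05. Arhgap32, Zfp180 and Dgkg were the last 3 genes inside the threshold, and Cep97 (0.47), Cd44 (-0.63) and Tfcp2l1 (0.45) were among the closest outside it. Genes inside it that are not described here include Fam107a, a glucocorticoid-induced actin-associated gene, at 1.20, and Stard4, a sterol transfer protein, at -0.87. At 4 h the next gene after Rad23b outside the threshold by p was Selenow, a small selenoprotein, and then Pym1 at 0.72 and Lars at -0.73. Groups without overlap between arrays were common over all genes, at 12.1%, 28.8% and 13.6% at 2, 4 and 6 h. All 7 genes were without overlap at 2 and 4 h, from which nothing is read, since these arrays chose them.

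**Figure D2:**
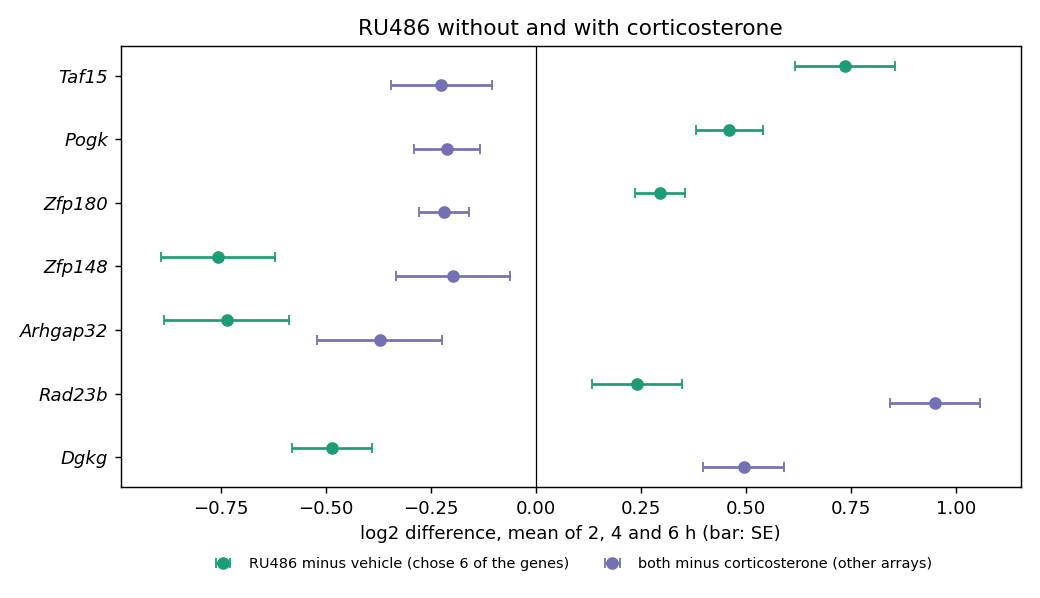
Log2 difference over the mean of 2, 4 and 6 h for each of the 7 genes, with RU486 alone against vehicle in green, the comparison that chose 6 of them, and RU486 added to corticosterone in purple. Bars are 1 SE from the fit; Taf15, Pogk, Zfp180 and Dgkg have points on opposite sides of 0, Zfp148 and Arhgap32 have both below 0, and Rad23b has both above 0.

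When RU486 was added to corticosterone, Rad23b and Dgkg rose and Zfp180 fell relative to corticosterone alone over the mean of the times, each on its brightest probe. The second probe of Rad23b, of nearly the same brightness, differed by 0.25 (limma adjusted p 0.173 over all probes), and that of Dgkg by -0.28 (adjusted p 0.0691). These 3 of 7 genes, on their brightest probes, were called against 12.8% of all genes tested, 7.34% higher and 5.48% lower. The shared estimate of spread and the pick of the brightest probe over all arrays can favour this count. Adjusted p-values are from limma with Benjamini-Hochberg adjustment over all 18929 genes. The median difference of all genes was 0.01.

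Rad23b had the largest difference of the 7. With corticosterone its arrays read 9.68, 9.60 and 9.57 at 2 h, 9.69, 9.87 and 9.78 at 4 h, and 9.79, 9.95 and 10.48 at 6 h. With corticosterone and RU486 they read 10.40, 10.40 and 10.61, then 11.14, 10.91 and 10.97, then 10.90, 10.83 and 10.80. The arrays with both agents lay above those with corticosterone at all 3 times, by 0.86 at 2 h (adjusted p 0.0204), 1.23 at 4 h (adjusted p 0.000265) and 0.77 at 6 h (adjusted p 0.028). The calls at 2 and 6 h were lost without single arrays of the groups compared, and the call at 4 h was not. The mean difference was 0.95 (SE 0.11, limma adjusted p 5.62e-07), a fold of 1.93. The reading with both agents was above the vehicle mean by 0.59 over the times, a value that uses the vehicle arrays of the choice and has no test. In the order of the 12 groups those with both agents came next after RU486 alone at 4 h. At 2 h, where RU486 alone lay below vehicle, the groups with both agents and with vehicle had means of 10.47 and 10.32.

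Dgkg was the second gene that rose. Corticosterone arrays read 9.13, 9.29 and 9.11 at 2 h, 8.37, 8.75 and 8.71 at 4 h, and 8.32, 8.32 and 8.55 at 6 h. Arrays with both agents read 9.38, 9.63 and 9.39, then 9.26, 9.24 and 9.36, then 8.87, 9.01 and 8.85, above the corticosterone arrays at each time. The mean difference was 0.49 (SE 0.10, limma adjusted p 0.000734), a fold of 1.41. By time it was 0.29 at 2 h (adjusted p 0.534), 0.68 at 4 h (adjusted p 0.0203) and 0.52 at 6 h (adjusted p 0.125). The call at 4 h was lost without corticosterone 4 h replicate 1 (0.56, limma adjusted p 0.162) and without any one of the arrays with both agents. On this probe RU486 stood below vehicle without corticosterone and above corticosterone when added to it, while the dimmer probe stood at -0.22 and -0.28 in those comparisons. The mean with both agents was -0.19 from vehicle (95% interval -0.385 to 0.0079), a value that uses the vehicle arrays of the choice and has no test.

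Zfp180 fell by 0.22 (SE 0.06, limma adjusted p 0.0132). Its corticosterone arrays read 9.67, 9.31 and 9.69 at 2 h, 9.77, 9.95 and 9.89 at 4 h, and 9.85, 9.71 and 9.59 at 6 h. Those with both agents read 9.25, 9.30 and 9.36, then 9.54, 9.51 and 9.54, then 9.62, 9.62 and 9.72. The groups were apart at 4 h only, and by time the differences were -0.25, -0.34 (adjusted p 0.0647) and -0.06. The difference at 4 h passed without the 2 arrays that stand apart (limma adjusted p 0.0125). Over the times the level with both agents was 0.05 above vehicle, and 0.01 without the 2 arrays that stand apart. These values use the vehicle arrays of the choice and have no test.

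The other 4 genes did not pass the test. Pogk differed by -0.21 (SE 0.08, limma adjusted p 0.0821, 95% interval -0.37 to -0.05) and Arhgap32 by -0.37 (SE 0.15, adjusted p 0.11, interval -0.68 to -0.07). Taf15 differed by -0.22 (SE 0.12, limma adjusted p 0.271, interval -0.47 to 0.02) and Zfp148 by -0.20 (SE 0.14, adjusted p 0.438, interval -0.48 to 0.08). Without the 2 arrays that stand apart Pogk (-0.24, adjusted p 0.0159) and Arhgap32 (-0.40, adjusted p 0.0091) passed as well, which made 5 of 7 genes, and the share of all genes called then was 31.2%.

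The arrays of these 4 genes show the spread behind those values. For Pogk the corticosterone arrays read 9.11, 8.76 and 9.21 at 2 h, 8.88, 9.02 and 9.14 at 4 h, and 9.07, 8.86 and 8.67 at 6 h, and those with both agents 8.60, 8.88 and 8.84, then 8.82, 8.54 and 8.50, then 8.78, 8.80 and 9.10. The groups were apart at 4 h alone, by -0.40 (limma adjusted p 0.118, and 0.0312 without the 2 arrays that stand apart). For Arhgap32 they read 9.48, 9.41 and 9.79 at 2 h, 8.93, 9.53 and 9.29 at 4 h, and 9.03, 9.30 and 8.66 at 6 h with corticosterone, and 8.82, 9.19 and 8.83, then 9.03, 8.97 and 8.90, then 8.68, 8.69 and 8.97 with both. Arhgap32 was apart at 2 h alone, by -0.61 (limma adjusted p 0.318, and 0.0416 without the 2 arrays that stand apart). The share of all genes called at single times without those 2 arrays is not given here, so nothing is read from such calls.

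Taf15 and Zfp148 had overlapping groups at every time. The corticosterone arrays of Taf15 read 8.91, 8.80 and 8.39 at 2 h, 8.19, 8.71 and 8.90 at 4 h, and 8.67, 8.74 and 9.53 at 6 h, and those with both agents 8.56, 8.55 and 8.62, then 8.63, 8.22 and 8.12, then 8.39, 9.05 and 8.69. Zfp148 read 9.34, 9.63 and 9.80, then 9.38, 9.88 and 9.88, then 9.59, 9.63 and 9.27 with corticosterone, and 9.17, 9.46 and 9.26, then 9.58, 9.71 and 9.65, then 9.31, 9.54 and 8.95 with both. With both agents Zfp148 and Arhgap32 nevertheless lay -0.69 and -0.80 from vehicle over the times, against 0.07 for Taf15 and 0.12 for Pogk (0.11 and 0.08 without the 2 arrays that stand apart), values that use the vehicle arrays of the choice and have no test.

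Counted by time, 3 of 7 genes had no overlap between corticosterone with and without RU486 at 2 h, 4 at 4 h and 2 at 6 h, against 26.9%, 47.5% and 19.4% of all genes. Genes called at an adjusted p of 0.05 were 1, 2 and 1 of the 7, against 0.792%, 3.18% and 1.4% of all genes. No difference between times in the effect of RU486 on corticosterone was called for any of the 7 genes, with limma adjusted p-values of at least 0.867.

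**Figure D3:**
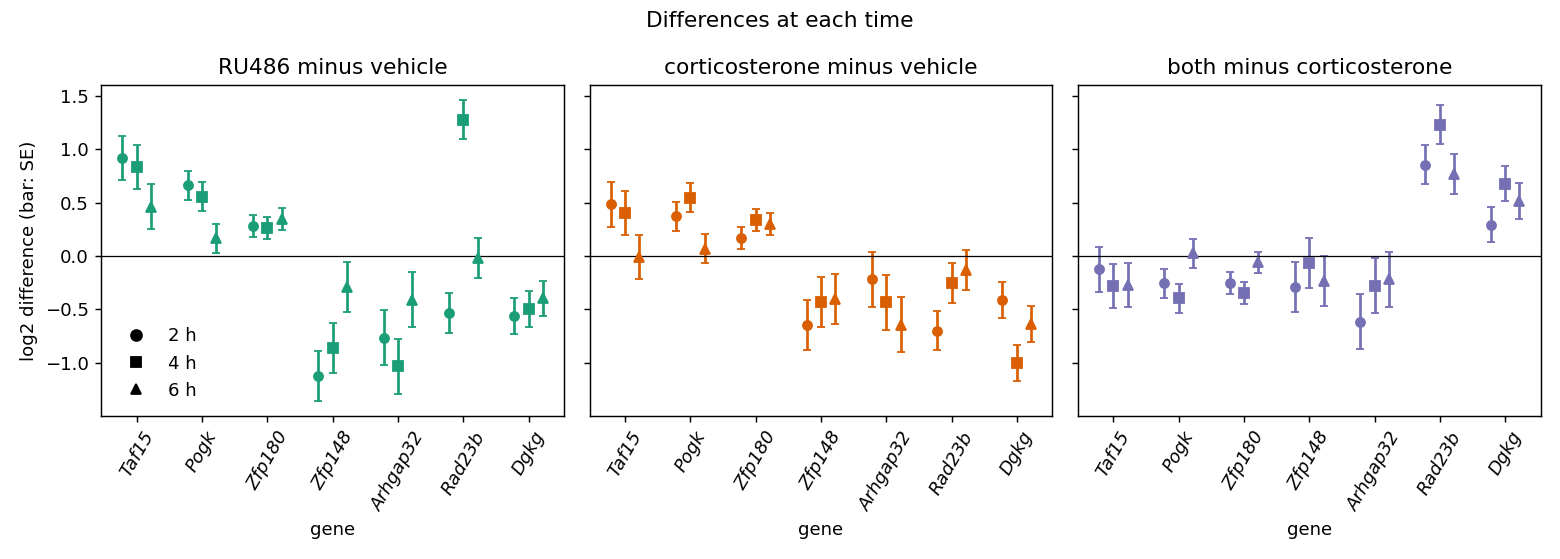
Log2 difference (vertical axis, the same in the 3 panels) of each gene at 2 h (circles), 4 h (squares) and 6 h (triangles) for RU486 against vehicle, corticosterone against vehicle, and both agents against corticosterone. Bars are 1 SE; Rad23b lies at -0.53, 1.28 and -0.02 in the first panel and at 0.86, 1.23 and 0.77 in the third.

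Corticosterone against vehicle shares its vehicle arrays with the comparison that chose the genes, so its values for these genes are not independent of the choice and the counts below support nothing. Over the mean of the times Dgkg was lower with corticosterone, by -0.68 (SE 0.10, limma adjusted p 3.09e-05) and so was Zfp148, by -0.49 (SE 0.14, adjusted p 0.0414). The call for Zfp148 held in 20 of 36 fits that each left out 1 array. Pogk was higher by 0.33 (SE 0.08, limma adjusted p 0.0162) and Zfp180 by 0.27 (SE 0.06, adjusted p 0.00762). By limma 4 of the 7 genes passed, where 2.97% of all genes did, a count that the shared vehicle arrays favour. Taf15 (0.29, adjusted p 0.219), Arhgap32 (-0.43, adjusted p 0.129) and Rad23b (-0.36, adjusted p 0.0625) did not pass in limma, and Rad23b did without the 2 arrays that stand apart (-0.38, adjusted p 0.0225), when 12.4% of all genes were called. Arhgap32 then stood at -0.29 and did not pass (limma adjusted p 0.106).

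Set side by side, the differences from vehicle over the times were 0.74 with RU486 and 0.29 with corticosterone for Taf15, 0.46 and 0.33 for Pogk, and 0.30 and 0.27 for Zfp180. They were -0.76 and -0.49 for Zfp148, -0.74 and -0.43 for Arhgap32, and -0.48 and -0.68 for Dgkg. Rad23b had 0.24 and -0.36. Both columns are measured from the same vehicle arrays, which by itself can give them the same sign. Of the single times Dgkg at 4 h was called, at -1.0 (SE 0.17, limma adjusted p 0.0012), against 0.127%, 0.835% and 1.01% of all genes at 2, 4 and 6 h. Pogk and Zfp180 at 4 h passed too without the 2 arrays that stand apart (limma adjusted p 0.00763 and 0.0233). Corticosterone and vehicle arrays did not overlap for 4 genes at 2 h, 6 at 4 h and 3 at 6 h, against 9.82%, 34% and 13.1% of all genes, and Dgkg and Zfp148 did not overlap at any time. Nothing is read from these counts either.

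Time itself could be tested on the arrays with corticosterone and with both agents, whose levels entered the choice only through the pick of probes. From 2 to 6 h, averaged over those 2 treatments, Dgkg fell by 0.67 (SE 0.12, limma adjusted p 0.000186), Rad23b rose by 0.42 (SE 0.13, adjusted p 0.0216) and Zfp180 rose by 0.25 (SE 0.07, adjusted p 0.0131). These 3 of 7 genes compare with 24.4% of all genes, 16% higher and 8.38% lower, and here too the shared estimate of spread can favour the count. The remaining values were -0.37 for Arhgap32 (limma adjusted p 0.14), 0.21 for Taf15 (adjusted p 0.306), -0.02 for Pogk and -0.06 for Zfp148. All these values are from the brightest probes. The second probe of Rad23b, of nearly the same brightness, differed by 0.0052 (limma adjusted p 0.981 over all probes), and its dimmer probes by -0.03 and -0.18. The other probe of Zfp180 differed by -0.04 (limma adjusted p 0.846), that of Zfp148 by 0.04 and the dim one of Pogk by -0.31 (adjusted p 0.00308). Vehicle arrays of Dgkg also fell on its brightest probe, from a mean of 9.59 at 2 h to 9.03 at 6 h. Without the 2 arrays that stand apart Arhgap32 was called too (-0.41, adjusted p 0.0227), when 45.2% of all genes were.

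In the order of the 12 group means, most neighbours differed by less than the larger of their standard deviations, in 10 of 11 steps for Taf15, Pogk, Zfp180 and Arhgap32, 9 for Zfp148, 8 for Dgkg and 6 for Rad23b. Rad23b ran from 9.62 with corticosterone at 2 h to 11.31 with RU486 at 4 h, the widest range of the 7. Taf15 ran from 8.20 with vehicle at 4 h to 9.45 with RU486 at 6 h. Dgkg ran from 8.39 with corticosterone at 6 h to 9.61 with vehicle at 4 h. The 3 vehicle groups were the highest for Zfp148, which reached down to 9.12 with RU486 at 2 h, and for Arhgap32, which reached down to 8.65 with RU486 at 4 h. For Arhgap32 the place of vehicle at 6 h rests on the array of 10.48 that stands apart, the other 2 being 9.44 and 8.99. Pogk (8.47 to 9.32) and Zfp180 (9.31 to 9.87) had the narrowest ranges, and the highest group of Zfp180 was corticosterone at 4 h.

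Other probes of the same genes followed the brightest probe to differing degrees, with correlations from -0.33 to 0.46 over the arrays. Rad23b had a second probe of nearly the same brightness, with means of 10.20 and 10.30, and over the 36 arrays the pair correlated at 0.23. When RU486 was added to corticosterone the second probe differed by 0.25 (SE 0.11, limma adjusted p 0.173 over all probes) where the brightest differed by 0.95 (adjusted p 7.33e-07). Its dimmer probes, at means of 7.91 and 6.62, differed by 0.01 (limma adjusted p 0.983) and -0.10 (adjusted p 0.587). With RU486 alone at 4 h, where the brightest probe stood at 1.28, the other 3 stood at 0.12, -0.39 and -0.14. Over the mean of the times they stood at 0.01, -0.61 (SE 0.20) and -0.17, where the brightest stood at 0.24. The results for Rad23b therefore describe 1 of its 4 probes past the filter.

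Dgkg had 1 other probe past the filter, of mean 7.50, which correlated at 0.46 with the brightest. It differed by -0.28 (SE 0.10, limma adjusted p 0.0691) when RU486 was added to corticosterone, the opposite direction to the 0.49 of the brightest probe (adjusted p 0.000873). With RU486 alone it was lower, by -0.22, and at 4 h by -0.52. From 2 to 6 h both probes of Dgkg fell, by 0.67 and 0.78 (limma adjusted p 0.000196 and 4.97e-05).

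The other probes of Zfp180, Zfp148 and Pogk correlated at 0.02, 0.06 and -0.07 with the brightest and differed by -0.05, 0.01 and 0.11 when RU486 was added to corticosterone, with none called. With RU486 alone they stood at 0.00, -0.19 and -0.01. Taf15 and Arhgap32 had 1 probe past the filter each. Which part of the transcript a probe reads was not analysed here. At the level of probes 10.4% were called in that comparison, and the called ones among the 14 were the brightest probes of Rad23b, Dgkg and Zfp180.

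**Figure D4:**
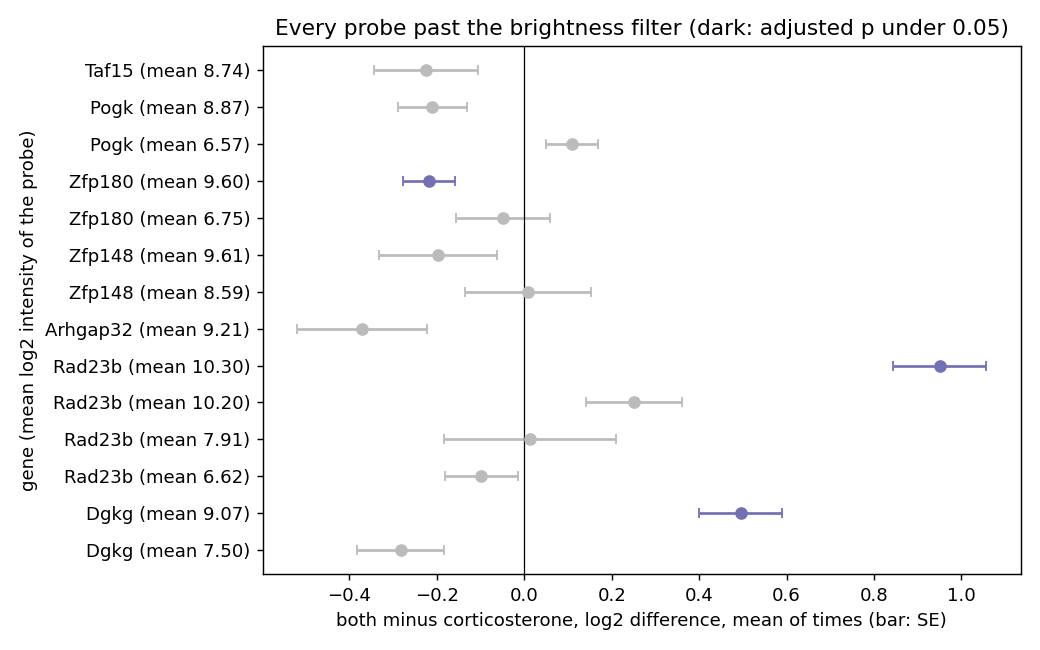
Log2 difference between corticosterone with RU486 and corticosterone, over the mean of the times, for each of the 14 probes past the filter, with the probe's mean log2 intensity beside the gene. Bars are 1 SE and dark points are called; the 3 called probes are the brightest of Zfp180 (-0.22), Rad23b (0.95) and Dgkg (0.49), and the second probe of Dgkg lies at -0.28.

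Relatives and partners of the genes were read from lists written with these data known. Except for the KRAB repressor machinery, these lists include the gene of the 7 itself, so its own value enters their counts and medians. Beside their counts, 12.8% of all genes were called when RU486 was added to corticosterone and 2.97% with corticosterone. These shares were 31.2% and 12.4% without the 2 arrays that stand apart. At an unadjusted p under 0.05 in limma there were 1878 of 18929 genes with RU486 alone, 4407 with RU486 added to corticosterone and 2857 with corticosterone. With RU486 alone Ewsr1, a FET relative of Taf15, stood at 0.05. Of the 3 FET genes none was called by limma when RU486 was added to corticosterone, and 0 were at an unadjusted p under 0.05. Of the 7 pogo transposase-derived genes measured 0 were called by limma when RU486 was added to corticosterone. The 1 at an unadjusted p under 0.05 was Pogk itself, and so was the 1 that was lower without the 2 arrays that stand apart. None of 4 measured genes of the KRAB repressor machinery was called by limma in the 3 comparisons, with 1, 0 and 0 at an unadjusted p under 0.05, and the scaffold Trim28 gave 0.76 (SE 0.37, limma adjusted p 0.499) with RU486 alone. When the 2 arrays that stand apart were left out, 2 of the 4 were higher with RU486 added to corticosterone and 1 was lower with corticosterone. Zfp281, the closest relative of Zfp148 on the list, stood at -0.00 with RU486 alone and at -0.29 (limma adjusted p 0.213) when RU486 was added to corticosterone. In the latter 1 of these 2 genes was lower without the 2 arrays that stand apart.

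Rad23b belongs to a list of 21 genes of Rad23 and its repair partners, of which 19 were measured. With RU486 alone 0 were called by limma over the times, with 4 at an unadjusted p under 0.05 and a median of 0.02. When RU486 was added to corticosterone Rad23b rose and Ubqln1, another shuttle for ubiquitinated proteins, fell by 0.31 (limma adjusted p 0.0206), with a median of -0.05 against 0.01 over all genes. Without the 2 arrays that stand apart 2 were higher and 7 lower, when 31.2% of all genes were called. Its partner Xpc differed by -0.08.

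Of 9 diacylglycerol kinases Dgkg was the one called when RU486 was added to corticosterone, where Dgkd had -0.28 (limma adjusted p 0.0618). Leaving out the 2 arrays that stand apart made it 1 higher and 1 lower. The list's medians were -0.15 with RU486 alone, -0.08 with corticosterone and 0.05 when RU486 was added to it. The list of Arhgap32, its relatives and pathway genes had 10 measured genes. Of these Arhgap1, a GTPase-activating protein for Cdc42, fell by 0.56 (limma adjusted p 0.00174) when RU486 was added to corticosterone. There 2 were higher and 2 lower without the 2 arrays that stand apart, and Arhgap32 itself was 1 of the lower. From 2 to 6 h, over the arrays with corticosterone, 1 of 3 FET genes and 1 of 7 pogo genes were called. So were 5 of 19 genes of Rad23 and its repair partners, Rad23b among them, and 3 of 9 diacylglycerol kinases, Dgkg among them. Of the list of Arhgap32, its relatives and pathway genes 3 of 10 were called, beside the 24.4% of all genes given above. These counts were 1, 1, 12, 4 and 6 without the 2 arrays that stand apart, beside 45.2% of all genes. Rad23b, Dgkg and Arhgap32 themselves are in the last 3 of these counts.

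Counts of glucocorticoid-induced genes are given as a description, since a list written with these data known cannot test the response to the hormone. Of 20 such genes, a list written with these data known, 16 rose with corticosterone (median 1.25) and 18 fell when RU486 was added to it (median -1.09). In these comparisons 2.97% and 12.8% of all genes were called. With RU486 alone 1 of the 20, Fam107a, was higher, where 0.074% of all genes were called, and the median was 0.20. At an unadjusted p under 0.05 in limma there were 8 of the 20, against 1878 of all 18929 genes. Without the 2 arrays that stand apart 18 were higher with corticosterone, when 12.4% of all genes were called. With RU486 alone 5 were then higher, and the share of all genes called in that fit was not worked out, so nothing is read from this count.

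The genes paired among themselves to differing degrees. Over the 12 group means, with the 2 arrays that stand apart left out, Zfp148 and Arhgap32 had r = 0.82 and Taf15 and Pogk r = 0.74, while Zfp180 and Dgkg had r = -0.76, the lowest of the 21 pairs. These points share arrays and the groups that chose the genes. Over the same means, the genes most like Rad23b were Ctnnd1 and Cldnd1 (r = 0.96 each, and 0.55 and 0.96 with all arrays), and those most like Dgkg were Wdr45b (0.96) and Sar1a (0.95). Arhgap32 was closest to Sox5 (0.94) and Tdp1 (0.93), Zfp180 to Cenpk (0.95), and Zfp148 to Icosl (0.93) and the gene listed as Gs2na-pending (0.91). Pogk was closest to Wfikkn2 and Cdh4 (0.88 each) and Taf15 to Ptk7 (0.86) and Ddx6 (0.83). With all 36 arrays the value for Wfikkn2 was 0.43, for Icosl 0.30 and for Cenpk 0.54, so these likenesses rest on which arrays are kept.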

How the data were processed

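Messenger RNA was measured on 36 one-colour Illumina bead arrays, 3 in each of 12 groups of treatment and time. Per the submitters' processing notes GenomeStudio was used; its version and the normalization steps are not given in the sources used here. The authors deposited linear intensities, and the values themselves show that they were quantile-normalized: the sorted values of the arrays differ by at most 1.15%. A second deposited table was used only for probe and gene names, since the names of its 72 per-sample columns match no label; detection p-values and normalization from raw beads were therefore not used here. Names were updated through RefSeq (GRCm38.p6) for 3045 genes, were already current for 11394 and were kept as listed for 4490.

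Intensities were taken to log2, with no further normalization. Probes brighter than the array median on at least 3 arrays were kept (28397 of 45281), and the brightest probe by mean stood for a gene, leaving 18929 genes. limma 3.58.1 in R 4.3.3 (lmFit, eBayes) fitted the 12 group means to all arrays, with Benjamini-Hochberg adjustment over all genes, two-sided tests and a threshold of 0.05. SE and 95% intervals come from that fit. The number of arrays per group, 3, limits the precision.

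The 7 genes, the gene lists and the 2 arrays that stand apart were chosen with earlier results of these data known. Named genes are the 7, at most 4 called genes per list, all measured genes of lists of up to 9, genes near the threshold of the choice, and the 2 genes most correlated with each of the 7; Xpc and others of longer lists were named after their values were seen. Some genes that this rule names are not reported here. The 12 groups came from the labels. No pair of arrays held identical values. Deviations of same-numbered replicates of the same time correlated at a median of 0.09 over 54 pairs, from -0.79 to 0.78. Replicates of different number gave a median of -0.02 over 108 pairs. A value above 0.1 was found in 26 of the former and 31 of the latter. The labels do not say that the numbers pair the samples, and they were not used as pairs in the main fit. Alternatives tried were the filter, all probes, normexp with offsets of 16 and 50, fewer groups in the fit, a replicate block, array weights, a trended robust prior, and leaving out arrays.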

Additional observations from a re-analysis of the deposited data

How the results depend on the processing

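With RU486 added to corticosterone, the mean over the times called 3 of the 7 genes and 2428 of all genes, the single times 1, 2 and 1 of the 7. Corticosterone against vehicle, which shares the vehicle arrays of the choice, called 4 of 7 and 562 genes over the times and 0, 1 and 0 at 2, 4 and 6 h. At an unadjusted p under 0.05 in limma it gave 5 and 3 of 7 at 2 and 6 h, against 825 and 3734 of all 18929 genes. The comparison of 6 h with 2 h called 3 of 7 and 4624 genes. With gene-by-gene array weights the counts called at an adjusted p under 0.05 became 6 and 9159, then 2, 6 and 3, then 7 and 5315, with 6 at 4 h and 1 at 6 h, and 10880 genes for time. With the 2 arrays that stand apart left out they became 5 and 5904, with 2 at 2 h and 4 at 4 h, then 2351 genes with 3 at 4 h, and 8547 genes for time. Fitting only the groups compared gave 2 at 6 h for RU486 added to corticosterone, and 2 of 7 and 355 genes for corticosterone. A trended robust prior gave 1 of 7 for corticosterone over the times, and a filter at the 75th percentile 1870 genes for time. Under these settings and the replicate block the counts of all genes at single times are not given here. Nothing is therefore read from the single-time counts of the 7 there. The replicate block gave 1 of 7 for corticosterone at 6 h in place of 0, and the labels do not say that the numbers pair the samples. The block made Rad23b over the times and Dgkg at 6 h pass for corticosterone. It moved no other count by over 1.5 times. Small values changed sign: Pogk at 6 h with RU486 added to corticosterone went to -0.0839 with weights and to -0.0807 without the 2 arrays, Taf15 at 6 h with corticosterone to 0.10 without them, and Zfp148 from 2 to 6 h to 0.0191 and 0.0179. The cause was not tested.

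Leaving out each of the 36 arrays in turn gave 3 to 4 of 7 and 1833 to 4091 genes for RU486 added to corticosterone, the most without vehicle 6 h replicate 1. By time it gave 0 to 1, 1 to 3 and 0 to 1 of 7, against 34 to 708, 168 to 1677 and 91 to 983 of all genes. Corticosterone gave 2 to 5 of 7 and 357 to 1165 genes, and 0 to 0, 1 to 3 and 0 to 2 by time, against 12 to 79, 55 to 658 and 98 to 4708 of all genes. Time gave 2 to 4 of 7 and 3519 to 7717 genes. For RU486 added to corticosterone Rad23b (0.90 to 1.02), Dgkg (0.46 to 0.52) and Zfp180 (-0.26 to -0.20) kept their call in 36 of 36 fits. For corticosterone Dgkg and Zfp180 did so in 36, Pogk in 35 (not without corticosterone 6 h replicate 1, adjusted p 0.0519) and Zfp148 in 20, with adjusted p up to 0.114 without corticosterone 4 h replicate 1. For time Rad23b lost its call without corticosterone 6 h replicate 3 (0.31) and Zfp180 without corticosterone 2 h replicate 2 (0.19). By time, with RU486 added, Rad23b lost its call at 2 h without any one of the 6 arrays compared (0.79 to 0.89) and at 6 h without any of 5, all but corticosterone replicate 3 (0.62 to 0.79), and Dgkg at 4 h without corticosterone replicate 1 (0.56) or any replicate with both agents (0.64 to 0.70). Ranges that crossed 0 were, with RU486 added to corticosterone, Zfp148 at 4 h (-0.23 to 0.0168) and at 6 h Taf15 (-0.44 to 0.0063), Pogk (-0.0807 to 0.12) and Zfp180 (-0.12 to 0.0067); with corticosterone at 6 h, Taf15 (-0.28 to 0.15), Pogk (-0.0331 to 0.17) and Rad23b (-0.34 to 0.0481); and over time Pogk (-0.0873 to 0.0287) and Zfp148 (-0.13 to 0.0179). Dim probes of the 7 genes near the array median limit what their other probes can show.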
